A study of Mus musculus with 12 samples.

Results

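The genes described here are 10 stress and growth response genes measured in mouse liver: Fos, Jun, Junb, Egr1, Ier2, Myc, Klf6, Gadd45a, Gadd45b and Gadd45g. They were chosen by symbol as immediate early genes and Gadd45 stress genes. The rule itself uses no measured value, but the choice was made with earlier results of these data known. All 10 were present among the 12086 genes of the table and all 10 passed the filter on low values, as did every other gene. Immediate early genes are switched on within minutes of a growth factor, cytokine or stress signal, without new protein synthesis, and their transcripts decay quickly. Fos and Jun proteins pair to form AP-1, a transcription factor that binds DNA as a dimer. The Gadd45 proteins are small acidic proteins induced by DNA damage, cytokines and nutrient stress. They bind the kinase MTK1, which feeds the p38 and JNK pathways, and they also bind proliferating cell nuclear antigen and the p21 inhibitor. In rodent liver, several of these genes are known for their rapid induction during regeneration and for their response to feeding, fasting and circulating hormones.

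Livers came from wild type male C57BL/6 mice killed in a fasted state at postnatal day 84 (12 weeks). Dams ate either an obesogenic diet, rich in fat and simple sugar and given with sweetened condensed milk, or a standard chow, and their sons were weaned at day 21 onto either of these diets. The 4 groups carry the diet of the dam and then that of the offspring: OO (obesogenic dam, obesogenic offspring), CO (control dam, obesogenic offspring), OC (obesogenic dam, control offspring) and CC (both control). The table held 3 OO, 2 CO, 3 OC and 3 CC libraries, with 1 library per liver sample, so 5 libraries came from obesogenic-fed and 6 from control-fed offspring. Nothing in the sources used here says which mice were littermates, so the tests measure the spread between these libraries.

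Values are scaled read counts, close to CPM, and are not divided by gene length, so levels are compared between libraries and not between genes. Recovered depth ran from 3976158 reads in OO.1 to 27837609 in OO.0, with 7969056 in the next deepest library, OC.0. A single read was worth between 0.0334 (OO.0) and 0.276 (OO.1), so 3 reads corresponded to between 0.1 and 0.829. Here the 95% intervals on single values are exact Poisson intervals and cover counting error only. Of 10 hepatocyte markers, 9 were measured in every library, at a summed level of 61388 to 85844, and Alb was not analysed here. The group sums were 61388 to 72785 in OO, 81343 to 82270 in CO, 72553 to 83913 in OC and 83021 to 85844 in CC. Of 7 cholangiocyte markers 3 were measured, and of 12 macrophage markers all 12. Cholangiocyte sums were 42.1 to 72.7 in OO, 49.7 to 59.2 in CO, 29.6 to 41.7 in OC and 25.7 to 41.5 in CC. Macrophage sums were 666 to 711 in OO, 580 to 650 in CO, 491 to 760 in OC and 425 to 563 in CC. Their part in the values of the 10 genes was not tested. Pancreas transcripts stood out in OC.0 and CO.1, where 13 measured pancreas markers summed to 6495 and 4124, against 7.6 to 965 in the others. The 7 measured skeletal muscle markers summed to 170 in OO.0 and 93.7 in CC.0, against 1.11 to 54.1 in the others. The acute phase gene Saa1 reached 5045 in CO.1 and 3415 in OC.1, and the Lars2 transcript took 12.9% of the signal in OO.1.

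Of the 10 genes, only Gadd45b changed with the diet of the offspring by limma's moderated test with Benjamini-Hochberg adjustment over all 12086 genes, at an adjusted p of 0.05. It was lower in obesogenic-fed offspring by 1.97 on the log2 scale, a 3.92-fold difference. The background was 3.96% of all genes called in that comparison, 2.24% higher and 1.72% lower. A count of 1 in 10 genes against that background is no result about the set as a whole. The other 9 did not pass, although Fos, Junb, Egr1, Myc, Klf6 and Gadd45a had higher means in both groups of obesogenic-fed offspring than in either control-fed group. Most of the 10 varied widely between mice of the same group.

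Promoter sequence helps to place the 3 Gadd45 genes side by side before their values, since they are paralogs whose values differed. The stretches below come from the RefSeq promoter table on the GRCm38.p6 build and run 5′ to 3′ on the gene's strand. The windows differ: they cover bases 200 to 21 before the annotated start for Gadd45b, 150 to 51 for Gadd45a and 150 to 1 for Gadd45g. Capitals mark matches, on either strand, to 4 short motifs. CACGTG is an E-box, to which Myc with Max can bind. TGACG is the core of the cyclic AMP response element, TATAAA is the classic core promoter element near the start, and the motif CCAAT is the one bound by NF-Y. The Gadd45b stretch is chr10:80929891-80930070 on the plus strand, the Gadd45a stretch is chr6:67037458-67037557 on the minus strand, and the Gadd45g stretch is chr13:51846525-51846674 on the plus strand.
Gadd45b: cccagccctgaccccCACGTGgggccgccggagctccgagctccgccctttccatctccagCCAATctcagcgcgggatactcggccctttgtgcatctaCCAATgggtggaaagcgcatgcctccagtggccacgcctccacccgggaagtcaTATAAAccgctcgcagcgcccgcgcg
Gadd45a: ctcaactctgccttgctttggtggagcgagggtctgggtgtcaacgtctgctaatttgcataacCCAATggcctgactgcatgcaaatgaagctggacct
Gadd45g: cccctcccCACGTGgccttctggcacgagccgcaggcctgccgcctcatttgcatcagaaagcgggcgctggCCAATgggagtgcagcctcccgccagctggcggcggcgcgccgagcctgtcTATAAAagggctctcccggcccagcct
The bases nearest the RefSeq start of Gadd45b and Gadd45a were left out because the GENCODE annotation places them inside the gene. All matches of both genes lay within the stretches shown. Because the windows differ, motifs were compared over the full 250 bases before each RefSeq start, with those bases included. There Gadd45b and Gadd45g held the E-box, the TATA element and the NF-Y motif, and Gadd45a held only the NF-Y motif of the 4. Over the same 250 bases of 32851 RefSeq promoters, CACGTG occurred in 6.0%, TATAAA in 12.4% and CCAAT in 33.8%. Of the 10 genes, 7 had a promoter sequence in the table, and 3, 3 and 6 of them held those motifs in that order. A match in these letters is a description of the sequence and not a bound site.

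Gadd45b (ENSMUSG00000015312), a growth arrest and stress gene induced in liver by NF-kappaB and by the nuclear receptor CAR, had 1.67, 2.21 and 1.96 in the 3 OO livers. It had 0.833 and 0.873 in the CO livers, 10.5, 2.74 and 16 in the OC livers, and 9.35, 4.49 and 4.01 in the CC livers. Every obesogenic-fed liver was therefore below every control-fed liver, with 2.21 as the highest obesogenic-fed and 2.74 as the lowest control-fed value. Across all genes, 3.84% showed no overlap between obesogenic-fed and control-fed livers, and 1.76% of all genes were wholly lower in obesogenic-fed livers. Among the 10, Gadd45b was alone in showing no overlap.

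The means were 1.95 ± 0.271 in OO (SD, n = 3), 0.853 ± 0.0281 in CO (SD, n = 2), 9.73 ± 6.66 in OC (SD, n = 3) and 5.95 ± 2.96 in CC (SD, n = 3). The average difference with offspring diet was -1.97 (SE 0.372, 95% interval -2.78 to -1.16, limma adjusted p = 0.0138), which ranked 182 by p among all genes. These levels rest on few reads: 50, 8 and 12 in OO, 5 and 4 in CO, 89, 18 and 109 in OC, and 59, 24 and 29 in CC. Counting intervals of the closest libraries overlapped, at 0.955 to 4.36 for OO.1 against 1.62 to 4.33 for OC.1.

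The Gadd45b call held with each library left out in turn, at -2.31 to -1.72 with limma adjusted p of 0.0014 to 0.0478. It missed the threshold with limma's voom on the recovered reads (-2.35, adjusted p = 0.0657). It also missed without the OC.0 and CO.1 livers, which had the most pancreas transcripts (-1.88, adjusted p = 0.112). Without OC.1 and CO.1, the livers with high Saa1, the difference was -2.32. OC.1 also had the lowest Gadd45b of the control-fed livers, so its removal widens the difference whatever the part of Saa1, which was not tested.

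Divided by dam, Gadd45b was lower in CO than in CC livers by -2.16 (SE 0.554, limma adjusted p = 0.08) and in OO than in OC livers by -1.78 (SE 0.496, limma adjusted p = 0.314). Neither passed the threshold in the main test, where 1.79% of genes were called for CO against CC and 0.165% for OO against OC. DESeq2 on the recovered reads called both, at -2.80 (adjusted p = 0.00802) and -2.37 (adjusted p = 0.00299). Leaving out OC.1 also brought both past the threshold in limma, at adjusted p = 0.0175 for CO against CC and 0.02 for OO against OC. OC.1 was the control-fed liver with the lowest Gadd45b, so its removal adds no support for either difference. It belongs to neither CO nor CC and enters that comparison only through the spread shared by all groups. With each library left out, the differences ranged from -2.37 to -1.81 for CO against CC and from -2.46 to -1.29 for OO against OC.

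The difference between the 2 offspring diet effects was 0.382 (95% interval -1.24 to 2.01, limma adjusted p = 0.978), so a dependence on the dam's diet was not detectable with these libraries. The average effect of the dam's diet on Gadd45b was 0.658 (95% interval -0.154 to 1.47, limma adjusted p = 0.816).

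**Figure D1:**
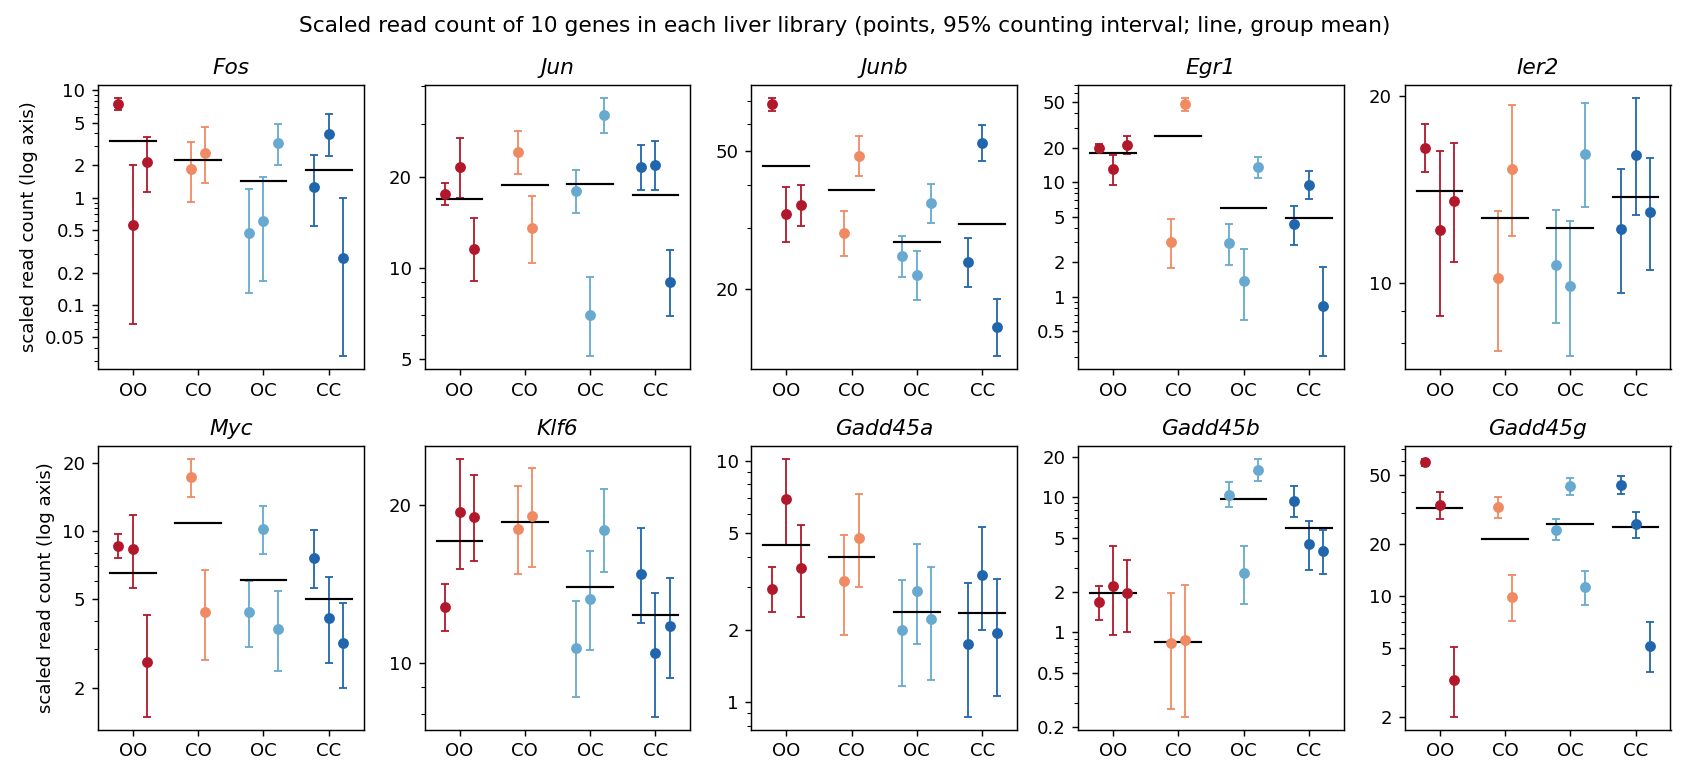
Scaled read count of each of the 10 genes in every liver (points, log axis) for OO, CO, OC and CC, with the 95% exact Poisson interval of each library as a bar and the group mean as a horizontal line. Gadd45b is the one panel in which the 5 obesogenic-fed livers (0.833 to 2.21) lie wholly below the 6 control-fed livers (2.74 to 16).

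Gadd45a (ENSMUSG00000036390), the p53-induced founder of the family, ran the other way in its means. It had 2.94, 6.91 and 3.59 in OO, 3.17 and 4.80 in CO, 2, 2.89 and 2.20 in OC, and 1.74, 3.37 and 1.93 in CC. The control-fed liver CC.1, at 3.37, lay within the obesogenic-fed range of 2.94 to 6.91, and the other control-fed livers lay below it. The means were 4.48 ± 2.13 in OO, 3.98 ± 1.16 in CO, 2.36 ± 0.467 in OC and 2.35 ± 0.887 in CC. Its average difference with offspring diet was 0.702 (SE 0.243, 95% interval 0.172 to 1.23, limma adjusted p = 0.136). Gadd45a shares 859 bases with E230016M11Rik on the opposite strand, and the strand setting of the counting is not given, so reads of the pair cannot be told apart. E230016M11Rik itself had 0.833 to 3.76 in obesogenic-fed and 0.608 to 2.99 in control-fed livers.

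Gadd45g (ENSMUSG00000021453), a cytokine-responsive member that in mice is also known for its response in thermogenic fat, showed no separation by diet. Its values were 59.2, 33.5 and 3.27 in OO, 32.5 and 9.82 in CO, 24.1, 42.9 and 11.2 in OC, and 43.7, 25.8 and 5.11 in CC. Every group held a liver at 11.2 or below and a liver at 32.5 or above, and the highest value was 18.1 times the lowest. Averaged over dams, the difference with offspring diet was -0.126 (95% interval -1.75 to 1.49, limma adjusted p = 0.955), and its sign depended on the setting. Of the 3 paralogs, then, Gadd45b alone passed the threshold, Gadd45a had a higher mean that missed it, and the Gadd45g interval spanned both directions. Gadd45a and Gadd45b ran opposite to each other over the 11 libraries (Pearson r = -0.656, permutation p = 0.0276, adjusted p = 0.155), and within groups r was -0.261.

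**Figure D2:**
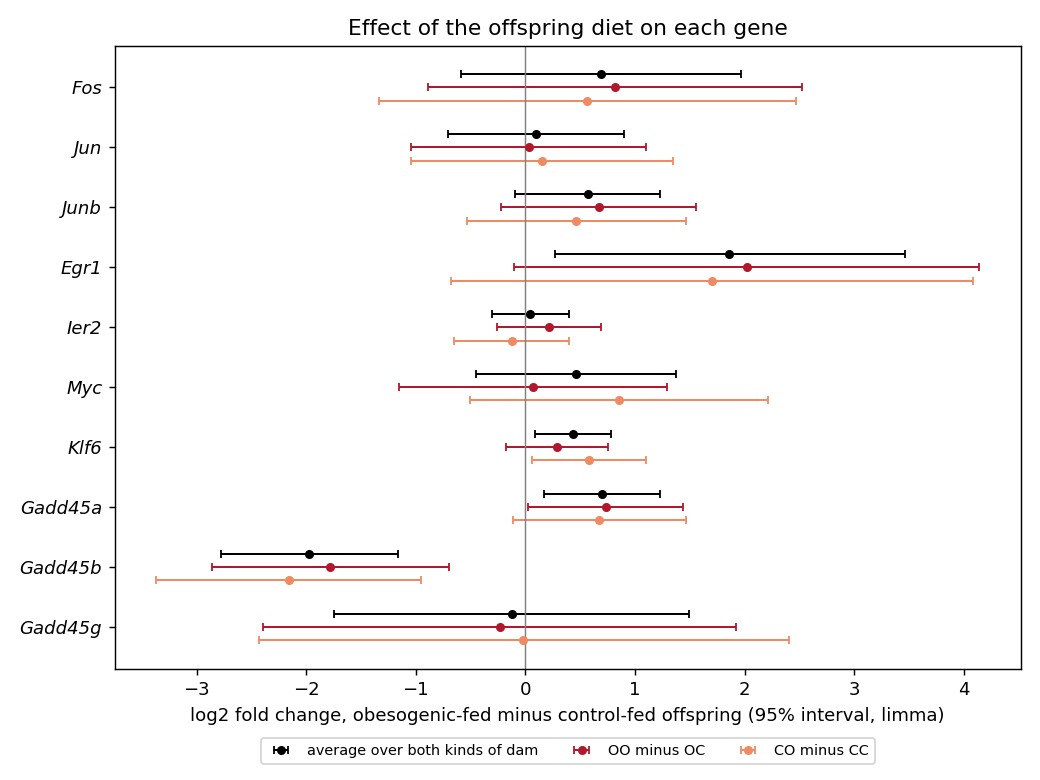
Difference between obesogenic-fed and control-fed offspring for each gene on the log2 scale (limma, bars are 95% intervals), as the average over both kinds of dam, for OO minus OC and for CO minus CC. The Gadd45b average of -1.97 is the one estimate that passed the adjusted threshold, and Egr1 and Gadd45g have the widest intervals.

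Turning to AP-1, the Fos and Junb promoters are shown because these transcripts moved together from liver to liver. They come from the same RefSeq table and build, with the same marking, each covering the 150 bases before the start: chr12:85473740-85473889 on the plus strand for Fos and chr8:84978749-84978898 on the minus strand for Junb.
Fos: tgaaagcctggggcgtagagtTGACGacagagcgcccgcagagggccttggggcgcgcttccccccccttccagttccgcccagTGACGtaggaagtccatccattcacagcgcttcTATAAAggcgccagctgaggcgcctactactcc
Junb: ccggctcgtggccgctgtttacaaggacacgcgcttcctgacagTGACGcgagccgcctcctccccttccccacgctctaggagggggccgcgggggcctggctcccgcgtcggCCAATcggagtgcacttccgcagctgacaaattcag
Both stretches held TGACG, which occurred in 17.8% of all promoters and in these 2 of the 7 genes with a sequence. None of the 7 held the AP-1 motif TGANTCA (6.7% of all promoters), the full TGACGTCA (1.5%) or a CArG box (1.5%) in the 250 bases before the start. Bases farther upstream and near matches to these motifs were not searched, and Egr1, Ier2 and Myc had no sequence. A match to the NF-kappaB consensus (3.9% of all promoters) was found in Fos alone.

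Fos (ENSMUSG00000021250), an AP-1 subunit that dimerises with Jun proteins, was measured at 7.45, 0.553 and 2.12 in OO, 1.83 and 2.62 in CO, 0.47, 0.608 and 3.23 in OC, and 1.27, 3.93 and 0.276 in CC. Low and high livers occurred under both offspring diets, and the highest value was 26.9 times the lowest. OO.1 and CC.2 each had 2 reads and OO.0 had 223, so the low end is poorly resolved. Obesogenic-fed minus control-fed offspring differed by 0.691 (95% interval -0.588 to 1.97, limma adjusted p = 0.57).

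Junb (ENSMUSG00000052837), an AP-1 subunit that also dimerises with Fos proteins, had 68.4, 32.9 and 35 in OO, 29.0 and 48.5 in CO, 24.8, 21.9 and 35.4 in OC, and 23.9, 52.9 and 15.5 in CC. The highest control-fed liver, CC.1 at 52.9, exceeded 4 of the 5 obesogenic-fed livers. Means were 45.4 ± 19.9 in OO, 38.7 ± 13.8 in CO, 27.4 ± 7.1 in OC and 30.8 ± 19.6 in CC, and the offspring diet difference was 0.567 (95% interval -0.0996 to 1.23, limma adjusted p = 0.344). Junb shares 351 bases with Prdx2 on the opposite strand, which had 76.9 to 93.8 in obesogenic-fed and 78.9 to 98.4 in control-fed livers.

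Jun (ENSMUSG00000052684), the AP-1 subunit that JNK phosphorylates, had 17.6, 21.6 and 11.6 in OO, 24.2 and 13.5 in CO, 18, 7.00 and 32.0 in OC, and 21.6, 21.9 and 8.98 in CC. The lowest and the highest Jun value both came from OC livers. For Jun the diet difference in offspring was 0.094 (95% interval -0.709 to 0.897, limma adjusted p = 0.928), with a sign that depended on the setting. Jun shares 689 bases with Junos on the opposite strand, for which no value was used here.

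Among the other immediate early factors, Egr1 had the largest estimated difference and also one of the widest spreads. Egr1 (ENSMUSG00000038418), a zinc finger factor induced through serum response elements, had 19.9, 13 and 21.2 in OO, 3.00 and 47.8 in CO, 2.94, 1.37 and 13.5 in OC, and 4.28, 9.54 and 0.829 in CC. The obesogenic-fed livers CO.0 at 3.00 and OO.1 at 13 were below the highest control-fed liver, OC.2 at 13.5, and the other obesogenic-fed livers were above it. CO.1, which held the top value, was a library with high Saa1 and pancreas transcripts, whose part in the Egr1 value was not tested.

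Group means of Egr1 were 18 ± 4.42 in OO (SD, n = 3), 25.4 ± 31.7 in CO (SD, n = 2), 5.94 ± 6.6 in OC (SD, n = 3) and 4.88 ± 4.38 in CC (SD, n = 3). For Egr1 the average difference with offspring diet was 1.86 (SE 0.73, 95% interval 0.266 to 3.46, limma adjusted p = 0.186). Leaving out CO.0 brought it to 2.81 (limma adjusted p = 0.0446), and leaving out CO.1 turned CO against CC to -0.191, against 1.70 with all libraries.

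Klf6 (ENSMUSG00000000078), a Krüppel-like factor expressed in hepatocytes and stellate cells, varied far less. It had 12.8, 19.4 and 19 in OO, 18 and 19 in CO, 10.7, 13.2 and 17.9 in OC, and 14.7, 10.5 and 11.7 in CC. Of the 5 obesogenic-fed livers, 4 were above every control-fed liver, and OO.0, the most deeply sequenced, was not. Means were 17 ± 3.7 in OO, 18.5 ± 0.7 in CO, 13.9 ± 3.66 in OC and 12.3 ± 2.19 in CC. Klf6 thus differed with offspring diet by 0.433 (SE 0.16, 95% interval 0.0836 to 0.782, limma adjusted p = 0.164). The 9 stellate markers summed to 507 to 686 in OO, 543 to 545 in CO, 464 to 564 in OC and 429 to 451 in CC, and their part in the Klf6 values was not tested. In whole liver, a different share of a cell type and a different level per cell cannot be told apart.

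Myc (ENSMUSG00000022346), the growth regulator that dimerises with Max, had 8.62, 8.29 and 2.61 in OO, 17.3 and 4.37 in CO, 4.35, 10.2 and 3.67 in OC, and 7.61, 4.11 and 3.18 in CC. High and low livers again occurred in every group, and CO.0 alone held the top value. Myc differed with offspring diet by 0.461 (95% interval -0.451 to 1.37, limma adjusted p = 0.597), and without CO.0 it was -0.0079.

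Ier2 (ENSMUSG00000053560), a short nuclear protein of the immediate early response, had the smallest ratio of highest to lowest value of the 10. It had 16.5, 12.2 and 13.6 in OO, 10.2 and 15.3 in CO, 10.7, 9.88 and 16.1 in OC, and 12.2, 16.1 and 13 in CC. The groups overlapped throughout, with that ratio at 1.67 and an offspring diet difference of 0.044 (95% interval -0.309 to 0.398, limma adjusted p = 0.922).

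Over the 10 genes, 8 had an offspring diet difference above 0, with a median of 0.447 against -0.000781 over all genes, and 4 had an unadjusted p under 0.05, as had 2339 of all 12086 genes. The 10 genes were measured in the same livers, so their directions are not independent of each other. For the dam's diet the members' median difference was 0.0371 against 0.00323 over all genes, and none of the 10 was called in any maternal comparison or in the interaction. Few genes of any kind were called there: 0.0331% for the average maternal effect, 0% for OC against CC, 0.0414% for OO against CO and 0.0331% for the interaction. For OC against CC, where limma called 0 genes, 636 of 12086 had an unadjusted p under 0.05.

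Spread between livers of one group was wide for most of these genes. The pooled within-group SD on the log2 scale was 1.55 for Gadd45g, 1.52 for Egr1, 1.18 for Fos, 0.85 for Myc and 0.757 for Jun, against a median of 0.224 over all genes. Those values lay at the percentiles 99.6, 99.5, 99.3, 98.6 and 97.9 of all 12086 genes. Gadd45b (SD 0.736, percentile 97.8) and Junb (0.627, 96.7) came next, and Gadd45a stood at 0.428 (88.4). Ier2 at 0.293 and Klf6 at 0.292 were nearer to the median gene but above it, at the percentiles 69.3 and 68.9. Among genes within 0.5 log2 units of the same mean level the percentiles of Gadd45g, Egr1 and Fos were 99.8, 99.5 and 97.5. Those of Ier2 and Klf6 were 77.9 and 79.6, and Gadd45a, at 72.9, was the lowest of the 10 genes.

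**Figure D3:**
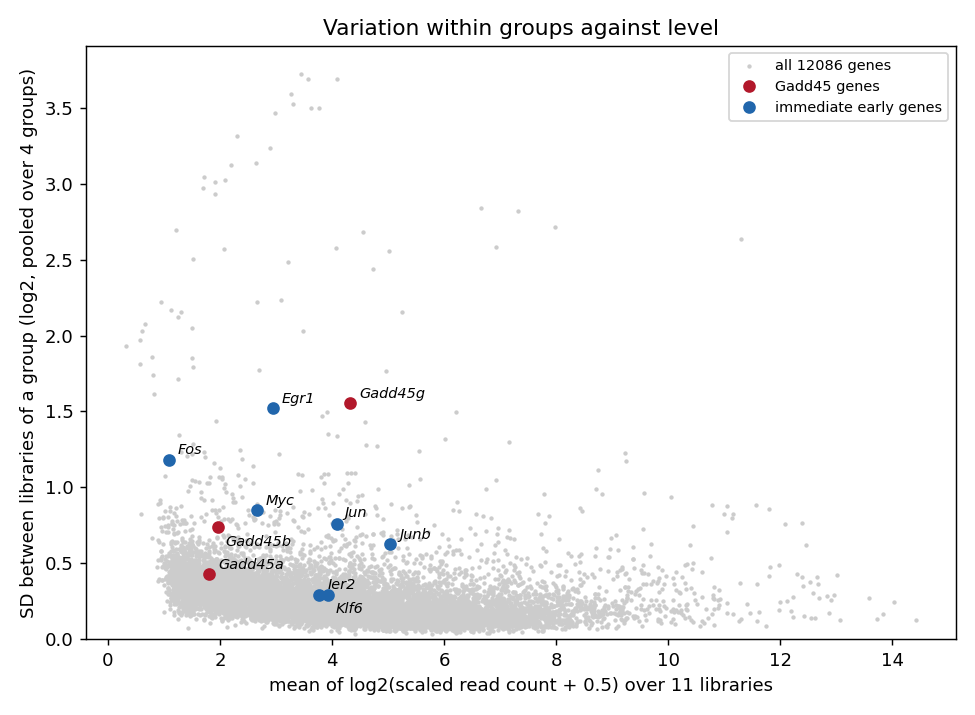
SD between libraries of one group (log2, pooled over the 4 groups) against mean log2 level for all 12086 genes (grey), with the 3 Gadd45 genes in red and the 7 immediate early genes in blue. Gadd45g, Egr1 and Fos lie above almost all genes of their level at 1.55, 1.52 and 1.18, while Ier2 and Klf6 lie lower, at 0.293 and 0.292.

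The variation was shared between some of the genes. Of 45 pairs tested over the 11 libraries, 2 had an adjusted permutation p under 0.05 for Pearson's r. Fos and Junb had r = 0.891 (permutation p = 0.00025, adjusted 0.0112) and rho = 0.891 (permutation p = 0.00046, adjusted 0.0207). Without CC.2 and OO.0, the 2 libraries farthest from the median of Fos, r was 0.774. Junb and Egr1 had r = 0.831 (permutation p = 0.00156, adjusted 0.0351), and r = 0.793 without the corresponding 2 libraries. Their rho was 0.818 (permutation p = 0.00309), with an adjusted p of 0.0695 that missed the threshold. After removal of the group means, r was 0.892 for Fos with Junb and 0.764 for Junb with Egr1, so the relation also held between mice of the same group.

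Myc and Gadd45g formed a second pair that missed the adjusted threshold. They had r = 0.789 (permutation p = 0.00406, adjusted 0.0609), rho = 0.8 (permutation p = 0.00468) and r = 0.871 within groups. With Fos, r was -0.000243 for Myc and 0.132 for Gadd45g. Both genes of a point come from the same library, and no label gives a time of day or order of dissection.

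**Figure D4:**
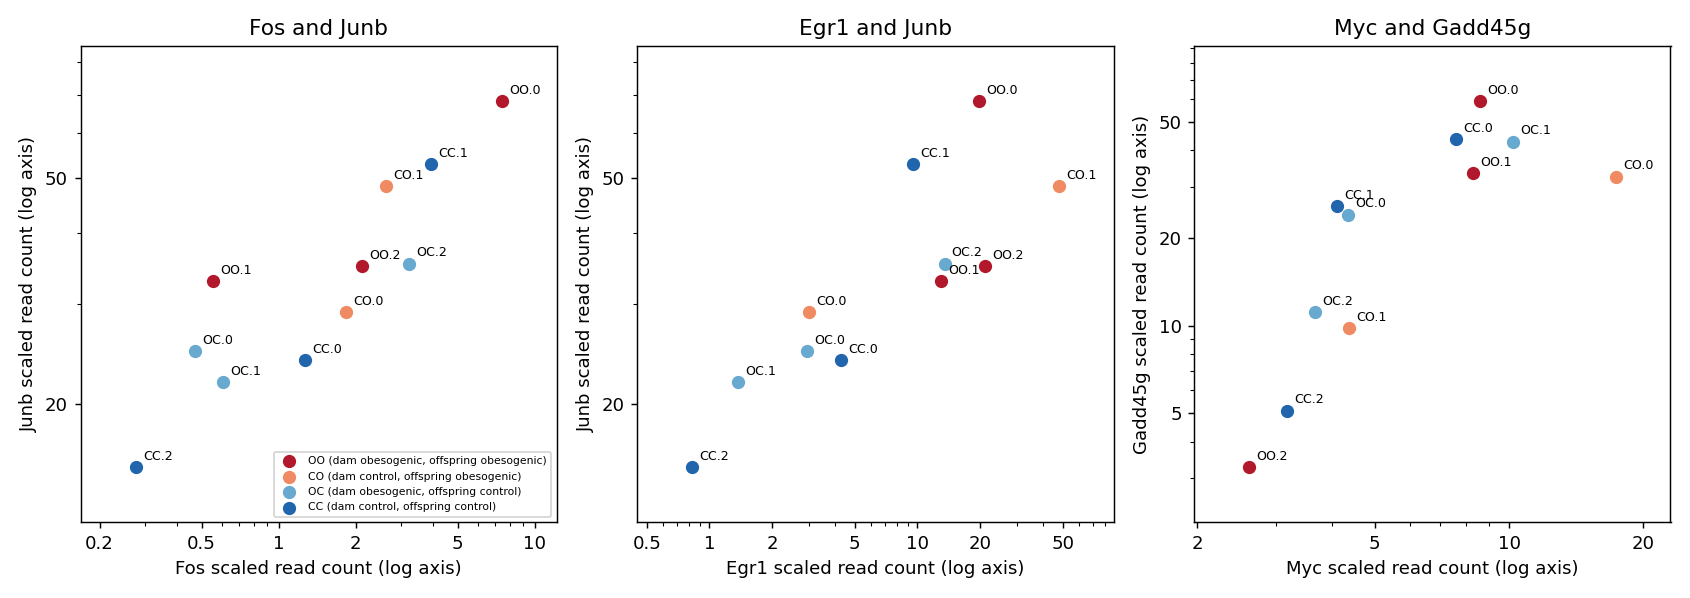
Scaled read counts of Fos and Junb, Egr1 and Junb, and Myc and Gadd45g in the 11 livers (log axes), coloured by group. Each pair rises together across groups, with Pearson r of 0.891, 0.831 and 0.789.

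The genes whose profile over the 11 libraries was most like the mean of the 7 immediate early genes, out of 9320 genes with a mean value of at least 5, were Dpp8 (r = 0.853), Clec16a (0.838), Iba57 (0.831), Nfyb (0.804) and Psmd14 (0.797). For the mean of the 3 Gadd45 genes they were Gtf2h2 (r = 0.893), Grk2 (0.888), Phf5a (0.876), Mcm7 (0.874) and Pdilt (0.869). These are descriptions from a ranking of many genes over few libraries. None of these resembling genes was called for offspring diet, with limma adjusted p of at least 0.22. Gadd45a and Gadd45b ran opposite to each other (r = -0.656), so their diet differences partly cancel in the mean of the 3. The lack of calls for that profile therefore says nothing about Gadd45b. Dpp8, for example, had 114.9, 113.1 and 99.5 in OO, 109.2 and 122.7 in CO, 92.2, 89.4 and 114.9 in OC, and 89.1, 104.9 and 92.2 in CC.

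Other immediate early genes outside the 10 were examined as a list of 35, of which 25 were measured. Fosl2, Rhob and Mcl1 rose with the offspring obesogenic diet and none passed as lower. That count of 3 stands beside 2.24% called higher and 1.72% lower over all genes. Differences were above 0 for 14 of the 25, with a median of 0.082 against -0.000781 over all genes. Sgk1, a serum and glucocorticoid induced kinase, lay just outside the threshold at -0.566 (limma adjusted p = 0.0508). Mcl1, an anti-apoptotic Bcl2 family member, had 102.9, 107.0 and 104.4 in OO, 132.0 and 124.6 in CO, 88.6, 92.0 and 96.0 in OC, and 81.8, 84.9 and 77.8 in CC, with every obesogenic-fed liver above every control-fed one. Across all genes, 3.84% showed no overlap between obesogenic-fed and control-fed livers in either direction. The average Mcl1 difference was 0.418 (SE 0.0678, limma adjusted p = 0.00731), and the call held under all 23 alternatives. The alternative without a filter repeated the main fit, since every gene passed the filter. Divided by dam, it was 0.652 for CO against CC (limma adjusted p = 0.0157) and 0.184 for OO against OC (limma adjusted p = 0.659).

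Rhob, a small GTPase of the endosome, had a difference of 0.423 (SE 0.0791, limma adjusted p = 0.0133). Rhob averaged 25.7 ± 1.27 in OO, 30.1 ± 0.902 in CO, 21.05 ± 1.26 in OC and 20.25 ± 0.859 in CC (SD). Without CO.1 its adjusted p was 0.0548. Fosl2, a further AP-1 subunit, had a difference of 0.695 (SE 0.169, limma adjusted p = 0.0433) and missed the threshold in 9 of the 11 fits that left out 1 library, all but those without CC.1 or OO.2, with a limma adjusted p of up to 0.104.

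The kinases and factors that carry signals to immediate early genes, 23 measured of 24, had 0 called by limma, and Egfr had the smallest p in that list (0.815, limma adjusted p = 0.111). Egfr averaged 621 ± 285 in OO, 1620 ± 693 in CO, 549.6 ± 109 in OC and 550.6 ± 177 in CC.

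In the stress kinase list, which Gadd45 proteins feed into, 1 of 14 measured genes passed, beside 3.96% of all genes, so the count is no result about the list. Map2k6, which activates p38, had 2.77, 1.66 and 4.08 in OO, 1.67 and 1.53 in CO, 4.35, 4.56 and 2.79 in OC, and 5.39, 7.29 and 8.02 in CC. It fell with the offspring diet by 1.12 on the log2 scale (SE 0.218, limma adjusted p = 0.0161), and CO against CC alone gave -1.80 (limma adjusted p = 0.025). The ranges overlapped between OO and OC livers, and without CO.1 the limma adjusted p for the average was 0.0598. Among p53 targets and Gadd45 partners, 14 measured of 18, Plk2 alone passed, again beside 3.96% of all genes. It fell by 0.532 (SE 0.123, limma adjusted p = 0.036), with 13.3 ± 0.748 in OO, 9.2 ± 0.662 in CO, 15.6 ± 2.79 in OC and 17.1 ± 2.97 in CC. Plk2 lost that call in 8 of the 11 fits that left out 1 library, all but those without CC.0, OC.0 or OC.1. The other 3 genes of this list with the smallest p missed the threshold: Sesn1, a stress-induced sestrin, at -0.438 (limma adjusted p = 0.0523), Ccng1, the cyclin G1 gene, at 0.481 (limma adjusted p = 0.0815), and Cdkn1a, the p21 gene, at -0.902 (limma adjusted p = 0.198).

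NF-kappaB and cytokine targets, 16 measured of 18, had 3 genes that rose and none that passed as lower, beside 2.24% called higher and 1.72% lower over all genes. The chemokine Cxcl1 had 26.9, 7.74 and 10.6 in OO, 4.17 and 57.4 in CO, 2.23, 4.71 and 1.76 in OC, and 0.476, 1.87 and 1.24 in CC, a difference of 2.73 (SE 0.575, limma adjusted p = 0.0244), with CO.0 below the highest control-fed liver, OC.1. Stat3, the interleukin-6 signal transducer, differed by 0.62 (limma adjusted p = 0.0282) and Bcl3, a nuclear IkappaB protein, by 0.912 (limma adjusted p = 0.036). Divided by dam, Stat3 differed by 0.965 for CO against CC (limma adjusted p = 0.0414) and by 0.276 for OO against OC (limma adjusted p = 0.772). The control-fed liver OC.1, at 150.9, was above OO.0 (150.7) and OO.2 (140.5) for Stat3. Over the list, the median difference was 0.527 for CO against CC and -0.0333 for OO against OC. Cxcl1 missed the threshold with voom on the recovered reads and with a robust variance, and its CC.0 value of 0.476 was 3 reads. With 1 library left out, Cxcl1 lost its call without CC.0, CC.2, CO.1, OC.0, OC.2 or OO.0 (limma adjusted p up to 0.065). Stat3 lost it without CC.2, CO.1, OC.0, OC.2, OO.0 or OO.1 (up to 0.111), and Bcl3 without CO.1 or any single OC or OO library (up to 0.146). Neutrophil markers, 4 measured of 9 with Ly6g, Mpo, Ngp, Camp and Retnlg not among the measured genes, summed to 10.9 to 16 in OO, 18.7 to 43.7 in CO, 10.2 to 14.8 in OC and 7.32 to 11.7 in CC. Their part in these values was not tested.

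The lists around CAR, which binds and induces Gadd45b in mouse liver, and around FoxO and fasting each had 1 gene past the threshold, beside 3.96% of all genes. Of 5 measured genes of 7 around the nuclear receptor CAR, Nr1i2, the pregnane X receptor, fell by 0.375 (SE 0.0826, limma adjusted p = 0.0297), with 82.8 ± 5.68 in OO, 69.7 ± 0.962 in CO, 99.1 ± 7.16 in OC and 98.6 ± 10.3 in CC. Alas1, the first enzyme of heme synthesis, missed the threshold at 0.843 (limma adjusted p = 0.0653), as did Rxra, the partner of CAR on DNA, at 0.337 (limma adjusted p = 0.132). CAR itself, Nr1i3, had a difference of -0.216 (limma adjusted p = 0.476). Of 15 FoxO and fasting targets, G6pc, which releases glucose from the liver, fell by 1.28 (SE 0.271, limma adjusted p = 0.0248), with 598.8, 205.4 and 196.9 in OO, 271.5 and 172.7 in CO, 806.7, 526.8 and 569.6 in OC, and 638.6, 613.7 and 534.6 in CC. With 1 library left out, Nr1i2 lost its call without CC.0, CC.2, CO.0, CO.1, OC.2, OO.0 or OO.2 (limma adjusted p up to 0.0925), and G6pc without CC.0, CC.2, CO.1, OC.0 or OO.1 (up to 0.106). None of 9 Myc partners and none of 17 Myc target genes was called for offspring diet.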

How the data were processed

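Liver RNA was sequenced from TruSeq libraries, as the labels' protocols state. Of 12 labelled samples, the table used here holds 11 columns, whose names give a group but not a labelled sample, so library numbers pair nothing. The authors deposited a signal, which the values show to be read counts scaled by library: 95.73% to 97.35% of the values of a library were whole multiples of 1 read at a tolerance of 0.01. Alignment used Bowtie 1.2.3 and mm8, per the submitters' processing notes. For the counter, annotation, strand setting and scaling, no name is given in the sources used here.

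From the values, log2(value + 0.5) was fitted with limma 3.58.1 (R 4.3.3, intensity trend) over all 11 libraries with 1 mean per group (7 residual and 4.66 prior degrees of freedom), with Benjamini-Hochberg adjustment over 12086 genes. Such fold changes understate changes of low genes. All genes passed the filter (a value of at least 1 in at least 3 libraries). Symbols matched 11965 genes, and 121 had none. Recovered reads were tested with edgeR 4.0.16, DESeq2 1.42.0 and voom as alternatives. Other alternatives were pseudocounts, filters, scalings, a robust variance, only the groups compared and libraries left out. Pair correlations used 100000 permutations. The limma fit was tested on simulated data.

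The lists, like the members, were chosen with earlier results of these data known. The text names all members, up to 4 genes per list with the smallest unadjusted p, and the 5 genes most like each profile. Coordinates are those of RefSeq on GRCm38.p6 and were not compared with mm8. The alternatives for called list genes were added after seeing the data.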

Additional observations from a re-analysis of the deposited data

How the results depend on the processing

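The count of the 10 genes called for the average offspring diet effect was 1 in the main test. It was 0 with voom on the recovered reads and 0 without OC.0 and CO.1, and it ranged from 1 to 2 with each library left out, where Egr1 joined without CO.0. For CO against CC the count was 0, and 1 with DESeq2, and ranged from 0 to 1 with each library left out. For OO against OC it was 0, then 1 with DESeq2 and 1 without OC.1 and CO.1, and ranged from 0 to 1 with each library left out. Gadd45b was the gene called in each of these. The cause was not tested. For CO against CC and OO against OC, the share of all genes called under each alternative is not given here. These counts are therefore no result about the 10 genes as a set. The counts for the maternal comparisons and the interaction were 0 under every alternative run.

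Differences near 0 changed sign. Jun for offspring diet was -0.0228 with edgeR and -0.0287 with DESeq2, and ranged from -0.191 to 0.338 with each library left out. Ier2 was -0.136 without OC.0 and CO.1 and -0.163 without OC.1 and CO.1, and ranged from -0.0968 to 0.186. Myc ranged from -0.0079 to 0.929. Gadd45g was 0.072 with edgeR, 0.0351 with DESeq2, 0.0426 with voom, 0.314 without OC.0 and CO.1 and 0.519 without OC.1 and CO.1, and ranged from -0.56 to 0.47. Egr1 for CO against CC was -0.191 in both fits without CO.1 and another library, and ranged from -0.191 to 3.6. Gadd45b for OC against CC ranged from -0.0229 to 1.15. Its interaction was -0.282 without OC.1 and CO.1 and ranged from -0.303 to 0.872.

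Over all alternatives, Gadd45b for offspring diet lay between -2.59 and -1.39. For the average offspring diet effect, limma called 479 of all genes, against 504 with edgeR and 770 with DESeq2 on the recovered reads, 134 without OC.0 and CO.1 and 250 without OC.1 and CO.1. Median-of-ratios scaling moved the median of all genes by at most 0.0129. Without OC.0 and CO.1, Mcl1 was the only gene of the pathway lists still called for offspring diet; without OC.1 and CO.1 these were Mcl1, Cxcl1 and Stat3. No paired analysis was possible because the columns carry no replicate number or litter from the labels. Leaving out a CO library leaves 1, assumed to vary like the other groups. Depth limits Fos and Gadd45b most, at 2 reads in 2 libraries and 4 to 5 reads in the CO livers.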

Other observations

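The 17 Myc target genes, many of them ribosome biogenesis genes, had no member called for the average maternal diet effect, while 0 of the 17 had a difference above 0. Their median was -0.242 against 0.00323 over all genes. Myc itself averaged 6.51 ± 3.38 in OO, 10.9 ± 9.17 in CO, 6.07 ± 3.58 in OC and 4.97 ± 2.33 in CC. Nop56, a nucleolar protein, averaged 15.1 ± 3.14 in OO, 17.9 ± 1.28 in CO, 18.9 ± 2.47 in OC and 23.5 ± 5.69 in CC. Nucleolin (Ncl) averaged 56.5 ± 4.46 in OO, 61.0 ± 2.33 in CO, 58.9 ± 9.4 in OC and 78.0 ± 8.86 in CC. Nop56 differed by -0.273 with the dam's diet and by -0.34 with the offspring diet, and Ncl by -0.261 and -0.198. Bop1 and Ldha, also among the list's smallest p for offspring diet, had maternal differences of -0.11 and -0.159. The 17 genes were measured in the same libraries, and their common direction is a description and was not tested.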
